A study of Mus musculus with 2 samples.

Results

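The members were 7 genes that encode subunits of the GABA-A receptor: Gabra2, Gabra4, Gabra5, Gabra6, Gabrb1, Gabrb2 and Gabrd. They were taken by name from the GENCODE M21 annotation, which holds 21911 protein-coding genes, and the rule itself uses no measured value. The members and the other gene lists used below were, however, chosen with earlier results of these data known. Other subunit genes of the receptor were not analysed here. The assay was DNase-seq, which maps open chromatin by where the enzyme DNase I can cut, and the tissue was hippocampus from B6CASTF1/J males at 10 days of age. Such mice are F1 offspring of a C57BL/6J by CAST/EiJ cross, while all positions and printed sequences are those of the C57BL/6J reference (mm10, GRCm38). There was 1 group of 2 libraries, each from a tissue sample said to hold 3 males. Both samples carry the same donor label, so the spread between the libraries may be partly technical. With no second condition there was no comparison to test, and every result below is a description of these 2 libraries.

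GABA-A receptors are chloride channels opened by the transmitter GABA. Each is a ring of subunits, usually of alpha and beta subunits joined by a gamma or delta subunit, and the alpha and beta subunits together form the site that binds GABA. Subunit choice sets where a receptor sits and which drugs it answers to: receptors with the Gabra2 product are mostly synaptic, those with the Gabra5 product or with the Gabra4 and Gabrd products carry tonic current in hippocampal pyramidal and dentate granule neurons, and the Gabra6 product is known from cerebellar granule neurons. Several of these genes lie side by side in clusters thought to descend from ancestral gene copies.

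A start was called open where a region listed by the authors lay within 1000 bp of it, and a gene was called open where any of its annotated starts was. Of the 7 members, 5 were open in replicate 1, 6 in replicate 2 and 5 in both by the shorter of the 2 lists deposited for each library, against 59.3% of all protein-coding genes in both. By the longer list, 6 of the 7 were open in both, against 64.4% of all protein-coding genes. The 5 genes were Gabra2, Gabra4, Gabrb1, Gabra5 and Gabrb2. Gabrd was open in replicate 2 alone by the shorter list and in both libraries by the longer one. Gabra6 had no region near a start in any of the 4 lists, as had 31.1% of all protein-coding genes. Among the 27 distinct starts of the members, 20 were open in replicate 1, 23 in replicate 2 and 20 in both. In bulk tissue, few cells with an open start and weak opening in many cells cannot be told apart.

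**Figure D1:**
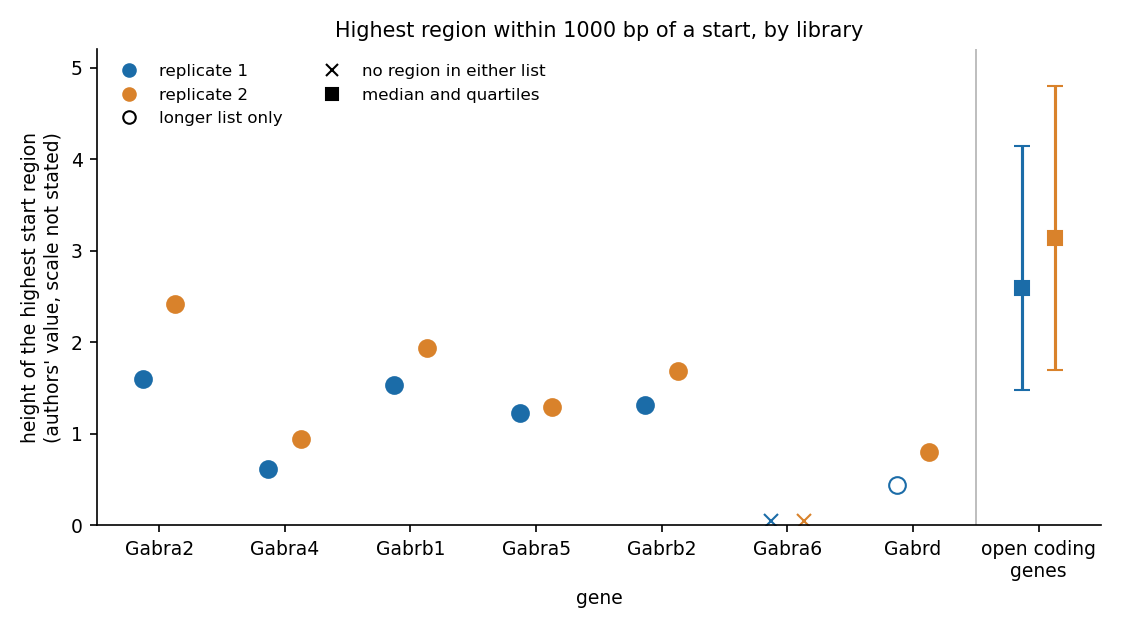
Height of the highest region within 1000 bp of any start of each gene (vertical axis, the authors' value), in replicate 1 and replicate 2; open circles mark a region of the longer list alone, crosses no region, and squares with bars the median and quartiles over all open protein-coding genes. The 5 genes open in both libraries lay between 0.61 and 1.6 in replicate 1 and between 0.945 and 2.42 in replicate 2, below the medians of 2.59 and 3.14.

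The open starts of the members were low by the standard of the genome. The height deposited with each region, whose scale per library is not stated, was read within each library; means and ratios over both take the scales as alike. Over all open protein-coding genes the median height of the highest start region was 2.59 in replicate 1 (quartiles 1.48 and 4.14) and 3.14 in replicate 2 (quartiles 1.7 and 4.8), and every open member lay below both medians. The median over open members of the mean of both libraries was 1.5, against 2.99 over all open protein-coding genes. CpG content at the outer starts was near or above that of genes in general. In the 1000 bases centred on the outer start, observed over expected CpG was 0.558 to 0.835 for the 6 genes other than Gabra6, against a median of 0.552 over all coding genes. In the decile of genes with CpG content like that of Gabra2, Gabra4, Gabrb1, Gabrb2 and Gabrd, the median highest start region was 2.32 in replicate 1 and 2.93 in replicate 2, above Gabra2, Gabra4, Gabrb1 and Gabrb2 in both libraries. At Gabrb1 and Gabrb2 the highest region lay at an inner start, so for them CpG content and height come from different starts.

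Gabra2 had the highest start of the members in both libraries. This alpha subunit gene occupies chr5:70957597-71095849 on the minus strand and has 6 annotated starts. Its highest start region had a height of 1.6 in replicate 1 and 2.42 in replicate 2, averaging 2.01 ± 0.582 (SD, n = 2), and 27.7% and 37.5% of open protein-coding genes had a lower one. The cut rate reached a false discovery rate of 2.6e-23 in replicate 1 and 1.21e-32 in replicate 2 there, the lowest of any member. Its start windows held 12 footprints, short stretches protected from cutting inside open DNA, in replicate 1 and 15 in replicate 2. Of the 12, 9 overlapped a footprint of replicate 2. The region at the outer start is printed below because most of the gene's shared footprints lie in it, read 5′ to 3′ along the gene; here and in the sequences that follow, capitals mark bases inside footprints of both libraries. It is the stretch of 300 bases at chr5:71095841-71096140, minus strand, with a GC content of 71.7%.
Gabra2 start: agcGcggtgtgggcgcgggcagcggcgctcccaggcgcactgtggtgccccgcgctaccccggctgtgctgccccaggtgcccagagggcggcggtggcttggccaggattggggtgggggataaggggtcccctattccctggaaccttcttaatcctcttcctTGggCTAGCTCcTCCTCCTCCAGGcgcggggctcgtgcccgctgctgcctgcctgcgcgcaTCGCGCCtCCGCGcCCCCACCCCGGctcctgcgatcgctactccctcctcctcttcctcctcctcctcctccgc
The longest stretches in footprints of both libraries cover 12 and 11 bases, and none of the motifs searched matched in this window. Of the 6 starts, the 5 near the outer end were open in both libraries, and the start of a retained-intron transcript, 82.2 kb further in, was not open in any list.

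Gabra4 and Gabrb1 lie head to head and have the same regions of the shorter lists within 1000 bp of their outer starts. Gabra4, the alpha subunit of dentate extrasynaptic receptors, occupies chr5:71569749-71658308 on the minus strand, and Gabrb1, a beta subunit gene, occupies chr5:71658113-72149037 on the plus strand. Their bodies overlap and their outer starts are 195 bp apart. The highest of these regions was centred in exon 1 of Gabra4 in replicate 1, upstream of Gabrb1, at chr5:71657556-71658020, with a height of 0.61. In replicate 2 it ran on over the Gabrb1 start, at chr5:71657481-71658220, with a height of 0.945. As the top start region of Gabra4 it exceeded that of only 3.24% and 9.91% of open protein-coding genes. The window of either gene's outer start held the same 7 footprints in replicate 1 and 9 in replicate 2, of which 2 overlapped between the libraries. Which gene these regions serve cannot be told apart. The central 300 bases of the stretch common to both libraries are shown as the sequence that counts at both genes (chr5:71657639-71657938, on the minus strand, as Gabra4 is read). They hold inner starts of Gabra4 and no annotated start of Gabrb1.
Gabra4 and Gabrb1 start region: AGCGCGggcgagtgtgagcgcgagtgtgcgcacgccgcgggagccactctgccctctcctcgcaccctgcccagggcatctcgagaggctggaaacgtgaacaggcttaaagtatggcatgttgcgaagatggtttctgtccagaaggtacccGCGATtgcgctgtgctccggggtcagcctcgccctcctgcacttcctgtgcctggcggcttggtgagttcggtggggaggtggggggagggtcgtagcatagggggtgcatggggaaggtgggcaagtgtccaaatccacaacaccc
Few of its bases are capital: 11 of the 300 lay in footprints of both libraries. None of the motifs searched matched in it. Outside it, the SP and KLF motif matched in the central 200 bases of the replicate 1 region at chr5:71658211-71658360, over the outer start of Gabra4. Of all start regions in replicate 1, 31.4% held such a match.

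Both beta subunit genes had a second, higher set of start regions inside the gene. In Gabrb1 a second coding transcript starts 41.8 kb downstream of the outer start, at position 71699932, and an annotated antisense gene starts within the same region, so the region cannot be assigned to one of them. The region over it, chr5:71699821-71700020, had identical borders in both libraries and heights of 1.46 in replicate 1 and 1.94 in replicate 2. A further region within 1000 bp of this start had heights of 1.53 in replicate 1 and 1.55 in replicate 2. These inner regions stood above the outer start of the same gene in both libraries. In Gabrb2, at chr11:42419757-42629028 on the plus strand, the outer start and the first of 3 inner starts are 1522 bp apart. The region over the inner starts had a height of 1.31 in replicate 1 and 1.69 in replicate 2, against 0.892 and 1.44 for the highest near the outer start.

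The inner starts of these genes share a footprinted sequence. The 200 bases of Gabrb1 at chr5:71699821-71700020 and of Gabrb2 at chr11:42421181-42421380, both on the plus strand, are shown together because of the capitals near their middle.
Gabrb1 inner start: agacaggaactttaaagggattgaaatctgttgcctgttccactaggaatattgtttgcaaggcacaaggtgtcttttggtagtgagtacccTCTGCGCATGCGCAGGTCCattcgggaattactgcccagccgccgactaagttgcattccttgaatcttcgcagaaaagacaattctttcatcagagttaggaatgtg
Gabrb2 inner start: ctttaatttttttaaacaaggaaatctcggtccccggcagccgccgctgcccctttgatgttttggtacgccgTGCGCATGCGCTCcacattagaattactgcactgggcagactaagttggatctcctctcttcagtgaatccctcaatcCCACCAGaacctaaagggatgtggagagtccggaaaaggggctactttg
The stretch common to the footprints of both libraries was 19 bases long in Gabrb1, ending 1 bp before the inner start, and 13 bases long in Gabrb2, ending 13 bp before the first inner start. Within each lies the core GCGCATGC, known from sites of the factor NRF1, as a pair of overlapping matches on opposite strands that make up 1 palindrome. At both starts all bases of both matches were in footprints of both libraries. Of 32851 promoter windows of 300 bases in the RefSeq table, 2.71% held this core on either strand. Among the regions at starts, 3.39% in replicate 1 and 2.73% in replicate 2 held it in their central 200 bases. No other start region of a member had a match in its central 200 bases, and longer regions were not searched to their ends. A match describes these letters alone, and binding of NRF1 was not measured.

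Gabrb2 had a further shared footprint in its first intron by GENCODE M21, 641 bp inside the outer start. It covered 19 bases in replicate 1 and 18 in replicate 2, in a region with heights of 0.892 and 1.16. A RefSeq promoter window of Gabrb2 covers this footprint, beginning at position 42420190, which is 250 bases before a RefSeq start. The region therefore also holds a RefSeq start, which is not among the GENCODE starts used here. The region is shown (chr11:42420281-42420560, plus strand) because the shared footprint ends next to an A- and T-rich stretch.
Gabrb2 first intron: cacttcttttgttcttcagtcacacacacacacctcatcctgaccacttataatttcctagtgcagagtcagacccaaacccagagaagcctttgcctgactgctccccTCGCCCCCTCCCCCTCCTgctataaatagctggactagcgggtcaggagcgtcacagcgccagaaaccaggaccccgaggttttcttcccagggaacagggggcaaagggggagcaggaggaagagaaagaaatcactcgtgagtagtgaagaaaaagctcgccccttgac
That stretch matched the consensus of MEF2, a motif added after the regions were seen, at bases 129 to 138, and the footprint ends at base 127. In RefSeq promoters 0.557% of windows held such a match, and in start regions 0.195% in replicate 1 and 0.206% in replicate 2. No base of the match was in a footprint of both libraries. The match lies before the RefSeq start and describes letters alone, which also spell TATAAA, a string not searched for. Binding of MEF2 was not measured.

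Gabra5 had start regions of nearly equal height in both libraries. This alpha subunit gene of hippocampal pyramidal neurons occupies chr7:57407672-57510059 on the minus strand, where another annotated coding gene lies within its locus. Its highest start region had a height of 1.23 in replicate 1 and 1.29 in replicate 2, averaging 1.26 ± 0.0405 (SD, n = 2), a ratio of replicate 2 over 1 of 1.05. The same ratio was 1.52 for Gabra2, 1.55 for Gabra4, 1.27 for Gabrb1 and 1.29 for Gabrb2, and its median over the 12993 genes open in both was 1.25. Its footprints were more numerous in replicate 1: 13 were listed in replicate 1 and 6 in replicate 2, and Gabra5 was the only member with more in replicate 1. By CpG content its start was the richest of the members, at 0.835 observed over expected. Genes in the same decile of CpG content had median heights of 3.28 in replicate 1 and 4.23 in replicate 2, and 94.2% of them were open in both.

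Gabrd, which encodes the delta subunit that replaces gamma in extrasynaptic receptors, had the lowest start of the 6 genes with any region. The gene is 13.1 kb long, at chr4:155384980-155398112 on the minus strand, and its 3 starts lie within 1 window. In replicate 2 the highest start region had a height of 0.798 and exceeded that of 7.1% of open protein-coding genes. In replicate 1 no region of the shorter list was present, and the longer list gave a height of 0.44. The lowest false discovery rate was 0.00249 in replicate 1 and 1.15e-06 in replicate 2. Its CpG content, 0.648 observed over expected, was like that of Gabra2 at 0.649.

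Gabra6 was closed by every measure at its starts. Its 3 starts lie 23 bp or less apart at the upper end of chr11:42306437-42321072, minus strand. No region, no footprint and no base with a listed cut rate lay within 1000 bp of them in either library. A footprint near a start was present in both libraries for the other 6 members, against 63% of all protein-coding genes, and so was a base with a listed cut rate, against 65.2%. The nearest region of the shorter list to the outer start of Gabra6 was 98 kb away in replicate 1 and 5.95 kb away in replicate 2. In replicate 2 this was a single low region of height 0.355 in exon 8, absent from both lists of replicate 1. The 300 bases around the outer start, from 250 before it to 50 after (chr11:42321023-42321322, minus strand), are shown for their contrast with the starts above.
Gabra6 start: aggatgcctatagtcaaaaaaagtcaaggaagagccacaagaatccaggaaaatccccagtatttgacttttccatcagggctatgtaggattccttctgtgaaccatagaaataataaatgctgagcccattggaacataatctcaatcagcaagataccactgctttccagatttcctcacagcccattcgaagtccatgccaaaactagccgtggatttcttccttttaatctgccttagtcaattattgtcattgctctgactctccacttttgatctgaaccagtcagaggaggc
They hold 2 CpG pairs and have a GC content of 42%, against 26 CpG pairs and 71.7% in the window of equal length at the start of Gabra2. In the 1000 bases around the outer start the observed over expected CpG was 0.161, below all but 17.4% of genes, and 12.9% of genes in that decile were open in both libraries. No motif searched matched in this window.

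**Figure D2:**
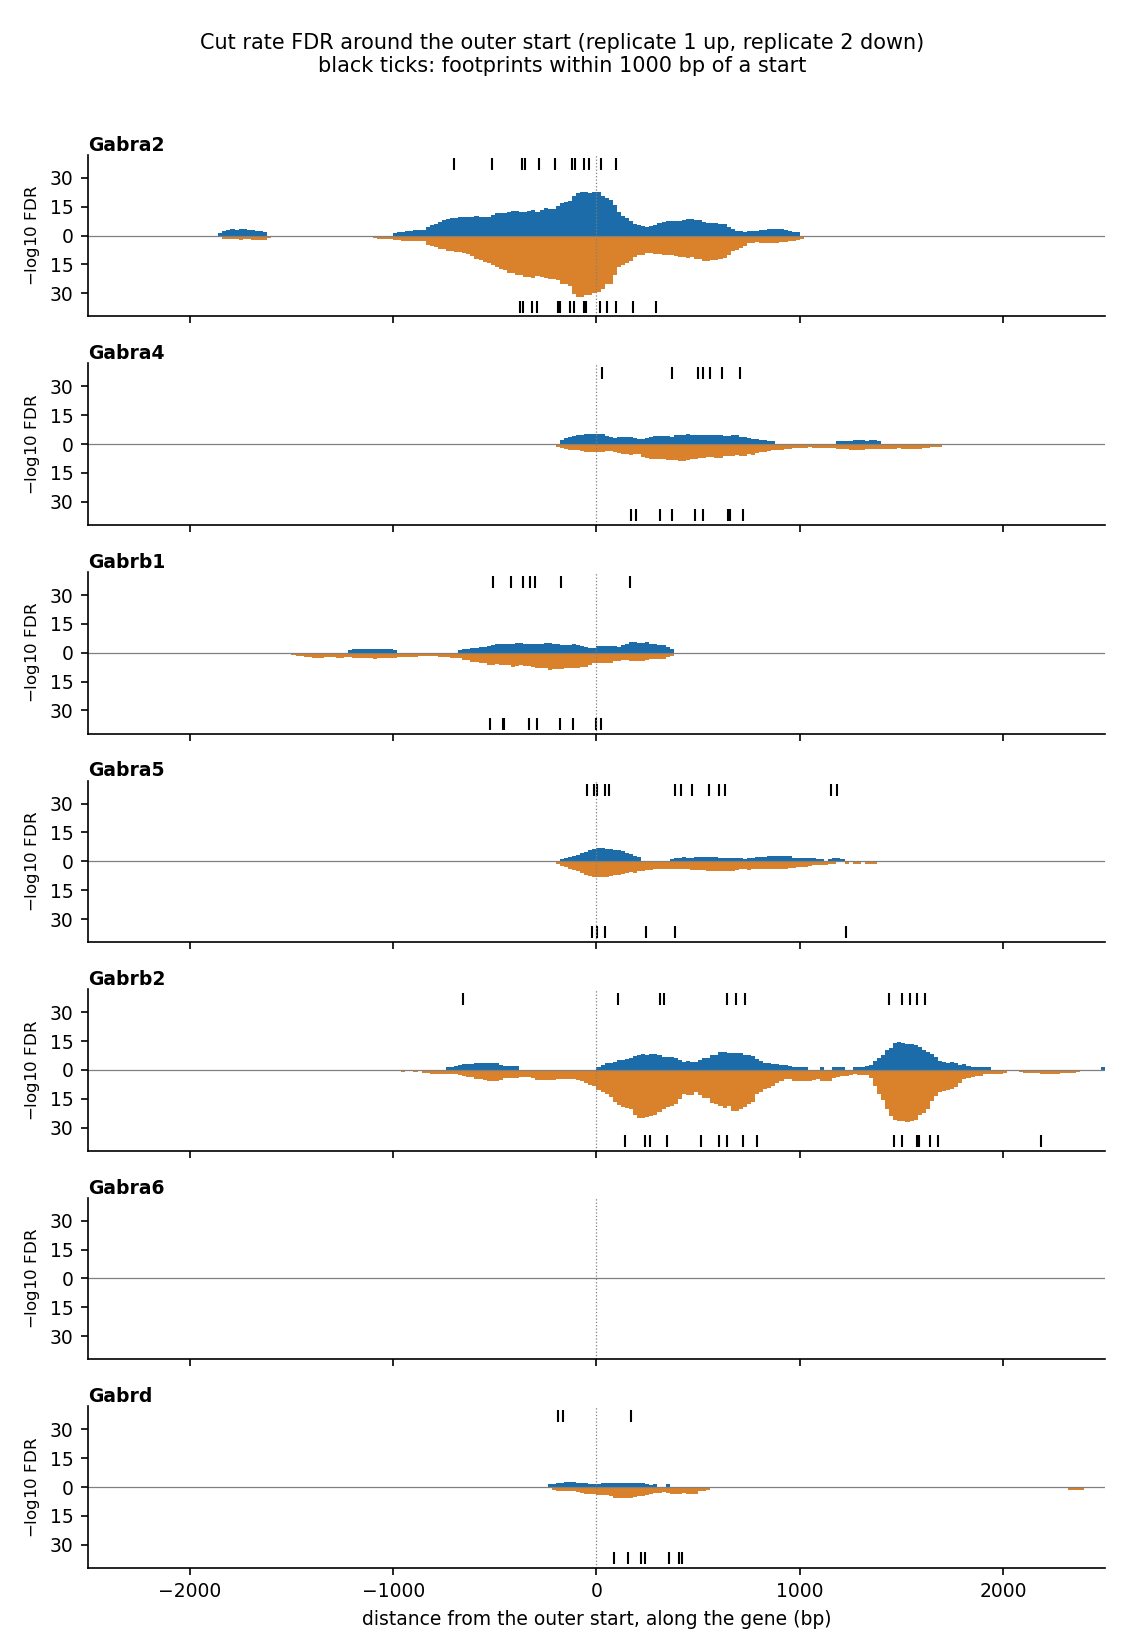
Deposited false discovery rate of the cut rate around the outer start of each member, as the largest −log10 value per bin of 20 bp (vertical axis, replicate 1 upward and replicate 2 downward), against distance from that start along the gene (bp); ticks mark footprints within 1000 bp of a start, and bases that were not listed have no bar. Gabra2 has its main peak at its outer start and a lower one inside the gene. Gabrb2 has its highest peaks downstream of its outer start and at its inner starts, and a lower one before the outer start. The profiles of Gabra4 and Gabrb1 mirror each other because both panels draw largely the same bases, read in opposite directions from starts 195 bp apart. Gabra6 has no bar.

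The profile of the cut rate differed in shape between the members. At Gabra2 it formed 1 main peak at the outer start with a shoulder before it, and lower separate peaks. The highest of these lower peaks stood about 440 bp inside the outer start in replicate 1 and 520 bp in replicate 2. It lay in a separate start region found in both libraries, with heights of 0.685 in replicate 1 and 1.1 in replicate 2. At Gabrb2 the profile formed separate peaks, none of them at the outer start itself. The highest of them stood about 260, 620 and 1480 bp inside it in replicate 1, and 200, 680 and 1520 bp in replicate 2. A lower peak stood about 520 bp before the outer start in both libraries. The lowest false discovery rate was at the inner start, with 4.45e-15 in replicate 1 and 1.38e-27 in replicate 2. Within reach of the outer start it was 5.1e-10 and 6.83e-26, at peaks inside the gene. At Gabra5 the lowest values were 1.18e-07 in replicate 1 and 4.37e-09 in replicate 2, and within reach of the outer starts of Gabra4 and Gabrb1 they were 4.23e-06 and 1.15e-09. The inner start of Gabrb1 had 1.14e-12 in replicate 1 and 4.67e-19 in replicate 2. Each open member thus had its lowest rate in replicate 2, the library with more regions. Bases with a listed cut rate, at most 0.05, numbered 2084 of the 3594 bases in the start windows of Gabrb2 in replicate 1 and 3117 in replicate 2, and 489 of 2077 at Gabrd in replicate 1 and 766 in replicate 2.

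Over the members together, most footprints at starts were listed in 1 library alone. Counting each footprint once, 19 of 51 footprints in the members' start windows in replicate 1 overlapped one of replicate 2, or 37.3%, against 59.7% of the footprints in start windows of all protein-coding genes. Of the 61 in replicate 2, 19 overlapped one of replicate 1, or 31.1%, against 42.4%. Gabra2 had the highest share in both libraries. As a share of replicate 1 it was 75% at Gabra2, 28.6% at Gabra4, 27.3% at Gabrb1, 25% at Gabrb2, 23.1% at Gabra5 and 33.3% at Gabrd, which had 3 footprints in replicate 1. As a share of replicate 2 it was 60% at Gabra2, 22.2% at Gabra4, 17.6% at Gabrb1, 18.8% at Gabrb2, 50% at Gabra5 with 6 footprints, and 14.3% at Gabrd. These differences were not tested, since footprints of 1 gene share their region. The lists held 226223 footprints in replicate 1 and 345745 in replicate 2.

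Away from starts, members had about as many shared regions as other genes of their length. A region was called distal where no annotated start of any gene lay within 1000 bp, and shared where it overlapped a region of the other library. Within the gene and 10 kb to either side of it, 5 of the 7 members had at least 1 shared distal region, against 44.1% of all protein-coding genes. Long genes have more room for such regions, so each member was read beside genes in the same decile of length. Gabrb1, the longest at 511 kb with its flanks, had 4 shared distal regions, and Gabra2 and Gabrb2 had 2 each, against a median of 2 in the longest decile. Gabra5 had 2 and Gabra4 had 1, against a median of 1 in the next decile. Gabra6 and Gabrd had 0, against a median of 0 in theirs. Per 100 kb this came to 1.63 at Gabra5, 1.26 at Gabra2, 0.921 at Gabra4, 0.872 at Gabrb2 and 0.783 at Gabrb1.

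**Figure D3:**
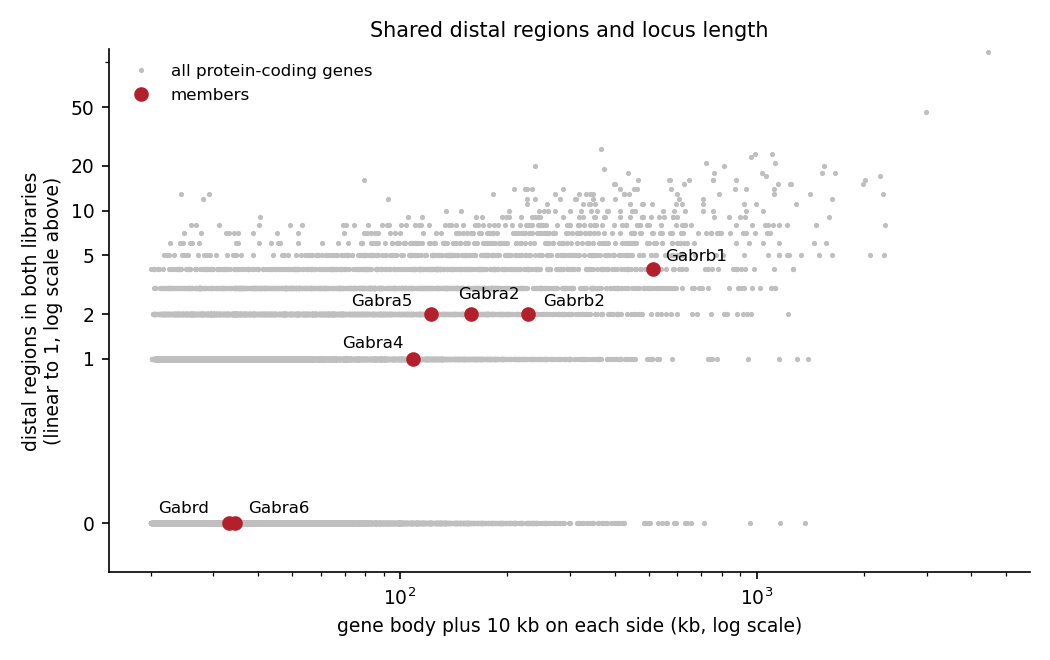
Number of distal regions found in both libraries (vertical axis, linear to 1 and logarithmic above) against the length of the gene with 10 kb added at both ends (kb, log axis), with the 7 members marked among all protein-coding genes. The members run from 0 at Gabrd and Gabra6 to 4 at Gabrb1 and lie within the cloud of genes of like length.

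In 4 of the loci the highest shared distal region was in an intron. In Gabra2 it lay in intron 8, 100 kb inside the gene (chr5:70995701-70995920 in replicate 1), with heights of 1.63 in replicate 1 and 1.61 in replicate 2, beside 1.6 and 2.42 at the highest start region; 79.5% and 77.7% of distal regions were lower. In Gabrb1 it lay in intron 5, 319 kb inside the gene (chr5:71976601-71976780), with heights of 1.75 and 1.34, and it was higher than any start region of Gabrb1 in replicate 1 but not in replicate 2. In Gabra5 it lay in intron 5, 35.7 kb inside (chr7:57474261-57474440), with heights of 1.43 and 1.35, above the gene's start regions in both libraries. In Gabrb2 it lay in intron 4, 3.7 kb inside (chr11:42423361-42423560), with heights of 1.31 and 1.6, beside 1.31 and 1.69 at the highest start region. The regions of Gabra5 and Gabrb2 had the same borders in both libraries. The only shared distal region at Gabra4 was in exon 9, with heights of 0.352 and 0.388.

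The Gabra5 and Gabrb2 regions carried the longest stretches in footprints of both libraries of any sequence shown here. They are printed for these capitals, Gabra5 on the minus strand (chr7:57474261-57474440) and Gabrb2 on the plus strand (chr11:42423361-42423560).
Gabra5 distal: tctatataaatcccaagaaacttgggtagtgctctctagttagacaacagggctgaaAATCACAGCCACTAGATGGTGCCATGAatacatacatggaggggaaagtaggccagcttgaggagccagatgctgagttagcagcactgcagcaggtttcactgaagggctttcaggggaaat
Gabrb2 distal: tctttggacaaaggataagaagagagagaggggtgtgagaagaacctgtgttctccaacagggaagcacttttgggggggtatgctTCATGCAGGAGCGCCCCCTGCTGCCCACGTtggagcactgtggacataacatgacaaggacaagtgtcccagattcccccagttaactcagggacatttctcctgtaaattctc
The capitals cover 27 bases in Gabra5 and 30 in Gabrb2. Neither holds the full consensus of CTCF, a factor that binds at chromatin loop anchors, and both hold it with 1 mismatch, at bases 66 to 77 in Gabra5 and 99 to 110 in Gabrb2. All 12 bases of each match were in footprints of both libraries. This search was added after the sequences were seen, and with 1 mismatch allowed 34.2% of distal regions in replicate 1 and 28.7% in replicate 2 held a match in their central 200 bases. The other shared distal region of Gabra5, upstream of the gene, also held such a match in both libraries. Distal regions in the shorter list of 1 library alone, at Gabra4 and at Gabrb1, held one too. The NEUROD E-box CAGATGG was in 1 shared distal region, in intron 4 of Gabrb1, 103 kb inside, and was in 12% of distal regions in replicate 1 and 11.3% in replicate 2. The AP-1 motif TGANTCA was in the region of Gabrb2 intron 9, and in 6.3% of distal regions in replicate 1 and 6.33% in replicate 2.

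**Figure D4:**
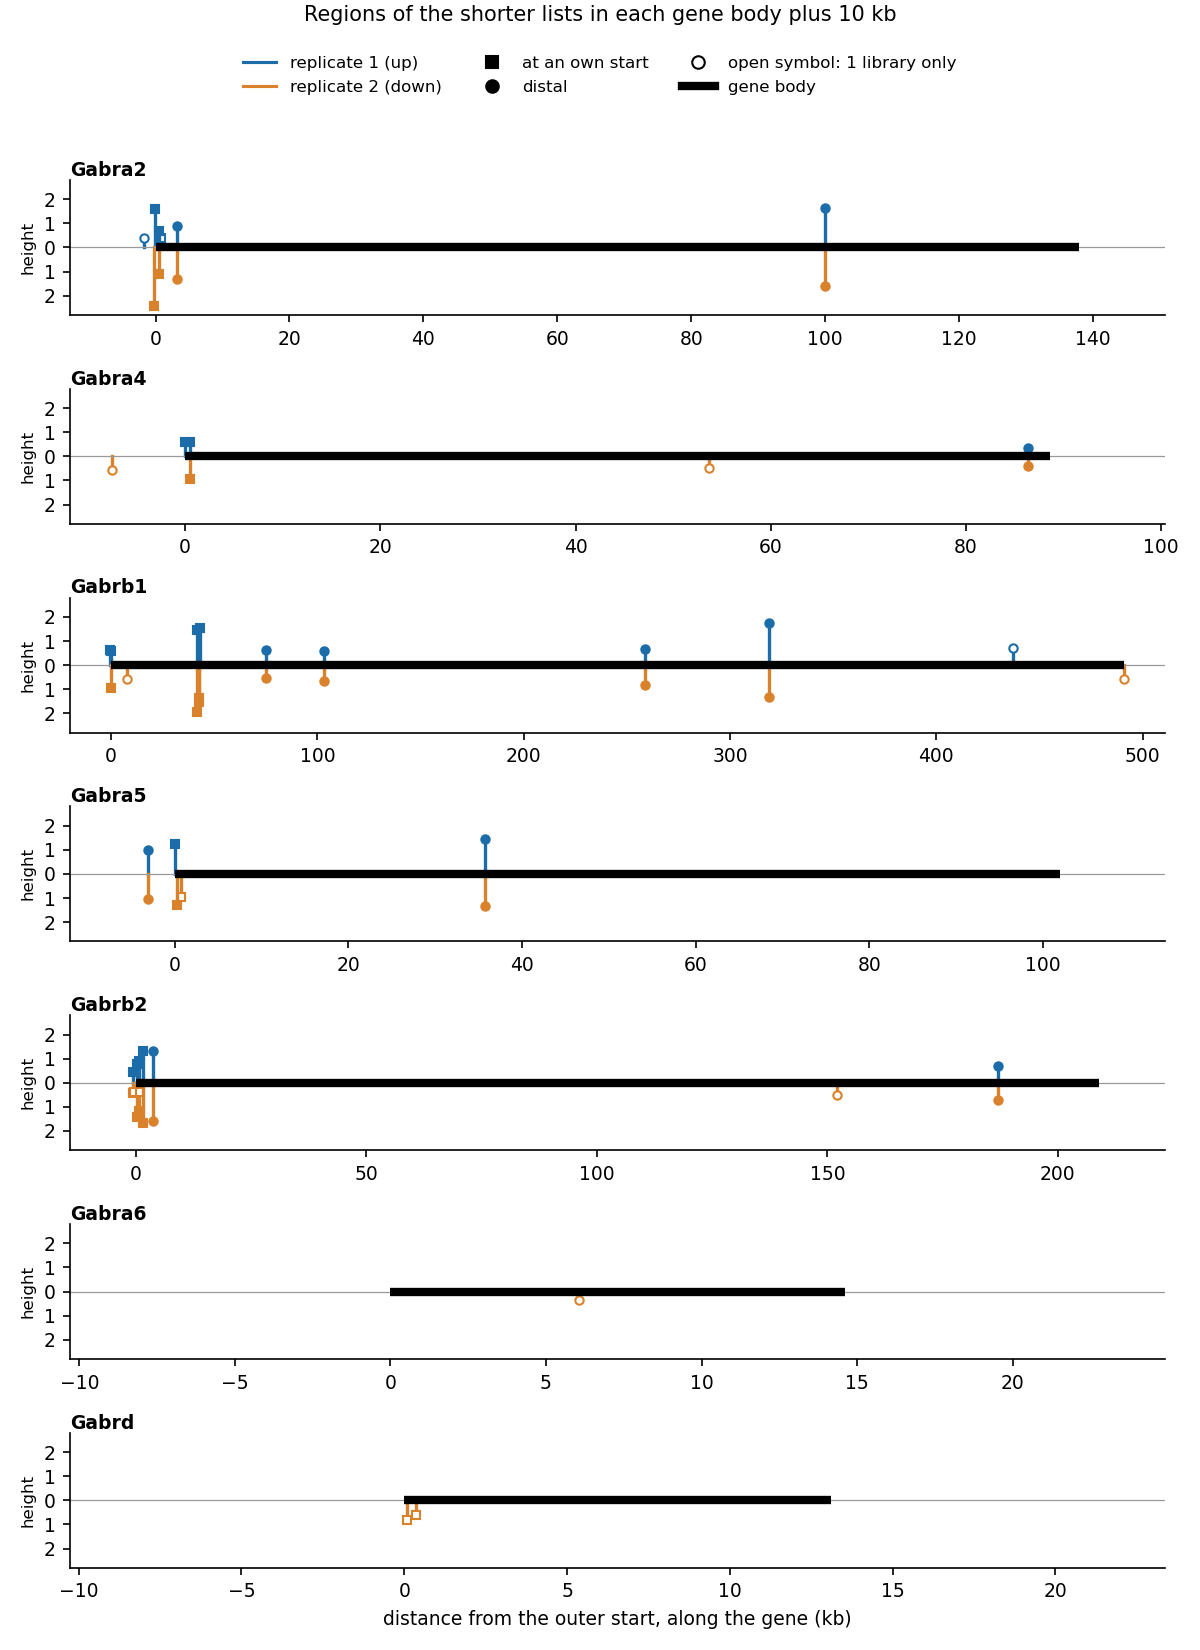
Regions of the shorter lists in each gene body plus 10 kb, by distance from the outer start along the gene (horizontal axis, kb) and height (vertical axis, replicate 1 upward and replicate 2 downward). Squares are regions at a start of the gene, circles are distal regions, and filled symbols overlap a region of the other library. Gabrb1 has its higher start regions 41.8 kb inside the gene, and Gabra6 has a single low region in replicate 2.

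By gene cluster, the locus on chromosome 5 held the most shared distal regions and Gabra5 the most per length. The Gabra2, Gabra4 and Gabrb1 cluster covered 758 kb of gene bodies and flanks, with 7 shared distal regions or 0.924 per 100 kb, and 12 of its 13 starts were open in both libraries. The Gabrb2 and Gabra6 cluster on chromosome 11 covered 264 kb, with 2 shared distal regions or 0.758 per 100 kb, and 5 of its 8 starts were open, all of them of Gabrb2. Gabra5 on chromosome 7 had 2 in 122 kb, or 1.63 per 100 kb, and 3 of 3 starts open. Gabrd on chromosome 4 had 0 in 33.1 kb, and 0 of 3 starts open by the shorter list. By the longer list the shared distal regions were 17 on chromosome 5, 4 on chromosome 11, 3 at Gabra5 and 0 at Gabrd. With so few regions, differences of 1 or 2 between loci are within what a single library changes.

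The intervals between clustered genes were read as well. On chromosome 11, Gabra6 and Gabrb2 are transcribed away from each other across a gap of 98.7 kb. It held no region of the shorter list up to 1000 bp before Gabrb2, in either library, and 1 and 2 of the longer list. On chromosome 5 the 474 kb between the bodies of Gabra2 and Gabra4, which hold another coding gene, had 6 regions of the shorter list in replicate 1 and 5 in replicate 2. The intervals differ in length and the counts are not per length, so they show no difference between the clusters. So the open starts of Gabrb2 and the closed ones of Gabra6 stood at the ends of an interval with no listed region of the shorter list.

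Listed genes whose products assemble, anchor, carry or modulate these receptors, or break down, take up or sense GABA were mostly open at their starts. Of 33 such genes, 30 were open in replicate 1, 33 in replicate 2 and 30 in both, against 59.3% of all protein-coding genes, and all 33 were open in both by the longer list. This list was chosen with earlier results of these data known. It left out Gad1, Gad2 and Slc32a1, which make GABA or load it into vesicles and were counted as interneuron markers. Of these, Gad1 was open in both libraries by the shorter list, and Gad2 and Slc32a1 in replicate 2 alone. As the mean of both libraries, the median highest start region was 1.5 over the open members and 2.43 over the open genes of this list, against 2.99 over all open protein-coding genes. The highest by the mean of both libraries was at Plcl1, whose product binds GABA-A receptor beta subunits, with 5.05 in replicate 1 and 6.08 in replicate 2. Dbi, which encodes the diazepam binding inhibitor, had 5.47 and 5.3, and Nlgn2, the adhesion protein of inhibitory synapses, had 4.88 and 5.57. The 3 genes open in replicate 2 alone were Lhfpl3 at 0.803, Lhfpl4, which encodes a receptor-associated protein of inhibitory synapses, at 1.26, and Slc6a11, a GABA transporter of astrocytes, at 1.02. In the longer list of replicate 1 they had 0.591, 0.616 and 0.629.

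Marker genes, also chosen with earlier results of these data known, were read beside the tissue label. All 10 markers of hippocampal and pyramidal neurons were open in both libraries, with a median highest start region of 2.14, against 59.3% of all protein-coding genes open and a median of 2.99. Of 10 genes of cerebellar granule neurons, where Gabra6 is known to be used, 6 were open in both libraries, near the 59.3% of all protein-coding genes, and 7 were by the longer list. The 4 others were Barhl1, Fat2, Atoh1 and Zic2; Barhl1 had no region in any list. Of 10 markers of GABAergic interneurons, 3 were open in both libraries, Gad1, Pvalb and Reln, with a median of 1.02, and Gad2, Slc32a1, Dlx1, Dlx2, Lhx6, Sst and Vip were not; by the longer list 6 were, with Gad2, Slc32a1 and Vip added. The cerebellar list is not specific, since other neurons also use genes in it such as Neurod1 and Cbln1.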

How the data were processed

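The 2 DNase-seq libraries, from hippocampus of B6CASTF1/J males, were treated as 1 group under the replicate numbers of the labels. The region lists hold a signal height per region that the authors deposited, on mm10 per the labels; the sources used here state neither its scale nor how regions were called. Cut rates per base come with a false discovery rate, an adjusted p-value of the authors, for bases at 0.05 or below, and the deposited footprint lists carry a p-value of 0.01 in every row, a limit of the authors. Sequencing depth is unknown, so no interval from counting was given.

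Results rest on the shorter list of each library, with 54546 and 74278 regions; the longer list, with 94187 and 131213, served as an alternative. Genes and starts were from GENCODE M21; where a symbol occurs more than once, the longest gene was kept with all its starts. A locus was the gene body plus 10 kb, and regions were shared at 1 bp of overlap. No test was made, since there was 1 group. Counts were made with Python 3.11.15, pandas 2.3.3 and numpy 2.4.6, and tested on simulated data; sequences were read from GRCm38 with pysam 0.24.0, and figures drawn with matplotlib 3.10.9. RefSeq promoters (GRCm38) covered 6 of the 7 members and were identical to the genome. Motifs were exact consensus strings on both strands: CRE, SP and KLF, NRF1, EGR, NEUROD, AP-1, ETS and RFX, with CTCF, MEF2 and NFI added after the regions were seen; only those named in the results matched at a printed sequence. The start sequence of 1 member is not reported here. All 7 members are named, with partner genes not open in both libraries, the 3 with the highest starts, and tissue markers that were not open. Members and lists were chosen with earlier results of these data known.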

Additional observations from a re-analysis of the deposited data

How the results depend on the processing

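No paired analysis was possible because there was 1 group of libraries. Each count of regions, starts or genes and each start height was recomputed with the longer list, the stronger 50% of regions, start windows of 500 and 2500 bp and each library alone, and, where it applies, with reciprocal overlap of 50%, other loci or starts of coding transcripts only; footprint counts were recomputed within 500 bp and inside regions only. Heights without 1 library, 10 values, always lie within 1 SD of 2 libraries and show nothing about stability. Gabra4 had no height in both libraries among the stronger 50% of regions, and Gabra6 and Gabrd had none to recompute. Of the 90 other values, 77 stayed within 1.5 times the reported count or within 1 SD of the reported height. Most start heights among them kept the same highest region, and counts of 0 that stayed 0 are included. The share therefore says little about stability. Starts open in both libraries numbered 11 with the stronger 50% of regions, against 20 of 27, and 11 of 15 for coding transcripts only. Shared distal regions of the chromosome 5 cluster, 7 as reported, were 17 with the longer list and 2 with the stronger 50% of regions. Those of the chromosome 11 cluster, 2 as reported, were 4 with the longer list, 1 with the stronger 50% and 1 with start windows of 2500 bp; with 1 library alone they ranged from 2 (replicate 1) to 4 (replicate 2). At Gabra5, 2 as reported, 1 was left with the stronger 50% and 1 in the gene body alone. At Gabrd, 0 as reported, 1 appeared in the gene body plus 50 kb. With 1 library alone, open members numbered 5 to 6, open starts 20 to 23, partner genes 30 to 33 and chromosome 5 distal regions 9 to 10. Footprints, summed over both libraries, moved at Gabra5, 10 inside regions against 19, and at Gabrb2, 18 within 500 bp against 28. Apart from the alternatives' own construction (more, fewer or other regions and starts), the cause of these shifts was not tested. Depth is unknown and limits every statement that a region is missing.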
